A study of Mus musculus with 16 samples.

Results

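Intermediate filaments are the ropes of the cytoskeleton, and in a muscle fibre they tie neighbouring myofibrils to each other at the Z-disc and anchor them to the plasma membrane, the nuclei and the mitochondria. The 7 genes described here are Des, Vim, Nes, Synm and Sync, which code for the filament proteins desmin, vimentin, nestin, synemin and syncoilin, Plec, which codes for the linker plectin, and Cryab, which codes for the small heat shock protein alpha B-crystallin. They were chosen by name, with earlier results of these data known. They are 7 of the 29730 genes in the count table, each found by its Ensembl identifier, and all 7 are protein coding. Their RNA was sequenced from the tibialis anterior, the muscle at the front of the shin, of male C57BL/6N mice at 7 weeks of age. There were 4 groups of 4 samples. WT_PBS and WT_ASO were wild-type (WT) mice given phosphate-buffered saline or the antisense oligonucleotide ASO1, which is directed at Dnm2 RNA. KO_PBS and KO_ASO were Bin1mck-/- knockout (KO) mice, a line that the series title presents as a recessive centronuclear myopathy model, given the same saline or oligonucleotide. The sources used here give neither what drives the deletion, nor which stretch of Bin1 it removes, nor the dose or times of injection. The labels do not say that each sample is a separate mouse, so P values measure the spread between these samples.

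Desmin is the most abundant intermediate filament protein of the adult fibre. Synemin and syncoilin need desmin or another partner to enter filaments and link them to the membrane complexes at costameres, and nestin and vimentin are filament proteins of muscle precursors and regenerating fibres. Vimentin is also the filament protein of fibroblasts, endothelial cells and leukocytes, and nestin persists in adult fibres at neuromuscular and myotendinous junctions. Plectin crosslinks filaments to Z-discs, costameres, nuclei and mitochondria, and alpha B-crystallin is a chaperone that binds desmin and holds it in solution under stress. Mutations of DES, CRYAB or PLEC in patients give myopathies in which filaments collapse or aggregate.

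Each sample held between 27591900 and 40862854 counts, and all 7 genes passed the filter on low counts that left 14960 genes to test, the lowest having 1043 counts in its lowest sample. The targeted genes followed the labels. Bin1 ran from 463 to 619.8 CPM over the 8 WT samples and from 31.7 to 47.7 CPM over the 8 KO samples, and Dnm2 ran from 50.2 to 67.7 CPM in the 8 saline samples and from 20.7 to 31.1 CPM in the 8 oligonucleotide samples. CPM is the usual count relative to the total of the library, with library sizes here scaled by TMM, the trimmed mean of M values. A log2 fold change (log2FC) is given with its standard error (SE), and a gene counts as called where its edgeR P value, adjusted over all 14960 genes, is under 0.05. The exact permutation test of a single gene, which is two-sided, cannot go below 0.0286 with 4 samples against 4.

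Levels can be compared between the genes only per length of exon, as RPKM, the CPM per kilobase of exon. In WT_PBS the order was Des at 756 ± 83.0 RPKM (SD, n = 4), Cryab at 557 ± 130.2, Synm at 109 ± 14.5, Plec at 63.5 ± 9.66, Vim at 18.5 ± 4.65, Sync at 15.2 ± 1.40 and Nes at 12.6 ± 0.744 (SD, n = 4 for each). The ranges of Des and Cryab overlapped, as did those of Vim and Sync and of Sync and Nes, and the other neighbours in the order were clear of each other. In KO_PBS the order changed at both ends. There Cryab stood first at 1306 ± 234 RPKM (SD, n = 4) with Des at 1270.1 ± 105 (SD, n = 4), and Nes at 26.8 ± 6.77 RPKM (SD, n = 4) stood above Sync at 22.4 ± 2.26 (SD, n = 4), but in both pairs the ranges overlapped. In WT_ASO the order was that of WT_PBS except that Sync stood above Vim with overlapping ranges, and in KO_ASO it was that of KO_PBS. In a whole muscle, more cells of a type and more RNA per cell cannot be told apart.

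The promoters of the 3 genes on which the filament results turn are shown for their context. Des and Nes passed the test both in KO_PBS against WT_PBS, as higher, and in KO_ASO against KO_PBS, as lower, and Synm was the member whose KO_PBS samples all lay below the WT_PBS samples. Each window, taken from RefSeq on GRCm38.p6, runs from 250 bases before the RefSeq start of the gene to 50 bases after it and reads 5′ to 3′ on the strand of the gene. The windows are chr1:75360042-75360341 on the plus strand for Des, chr3:87970843-87971142 on the plus strand for Nes and chr7:67759693-67759992 on the minus strand for Synm. Capitals mark E-boxes (CANNTG, the motif bound by myogenic factors such as MyoD and myogenin) and CCAAT boxes in either orientation.
Des: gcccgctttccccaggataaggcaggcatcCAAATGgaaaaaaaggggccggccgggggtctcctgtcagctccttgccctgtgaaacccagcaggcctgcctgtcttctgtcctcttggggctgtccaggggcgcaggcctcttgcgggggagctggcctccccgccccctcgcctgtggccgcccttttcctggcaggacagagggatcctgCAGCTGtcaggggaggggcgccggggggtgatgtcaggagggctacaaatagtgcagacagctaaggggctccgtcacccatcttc
Nes: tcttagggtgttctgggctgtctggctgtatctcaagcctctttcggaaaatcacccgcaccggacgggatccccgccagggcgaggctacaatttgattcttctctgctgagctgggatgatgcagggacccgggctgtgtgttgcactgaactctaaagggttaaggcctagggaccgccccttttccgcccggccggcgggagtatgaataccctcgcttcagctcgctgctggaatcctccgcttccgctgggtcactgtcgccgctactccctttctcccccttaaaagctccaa
Synm: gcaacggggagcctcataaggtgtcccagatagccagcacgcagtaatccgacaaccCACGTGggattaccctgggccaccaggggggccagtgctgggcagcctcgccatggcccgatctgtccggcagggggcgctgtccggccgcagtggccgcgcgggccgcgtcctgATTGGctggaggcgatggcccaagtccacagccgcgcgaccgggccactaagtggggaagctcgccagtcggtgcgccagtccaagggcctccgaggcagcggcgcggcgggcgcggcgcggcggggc
Des held 2 E-boxes, the nearer of them 36 bases before the start, Synm held 1 E-box and 1 CCAAT box, and Nes held none of these motifs. The window of Sync held 2 E-boxes, the nearer 20 bases before the start, and that of Vim held 2 CCAAT boxes and a TATAAA motif 32 bases before the start. An E-box was present in 72.3% of 32851 mouse promoters of this length, a CCAAT box in 37.4% and TATAAA in 13.6%, all searched on both strands. The M-CAT motif (CATTCC, in 14.7% of all promoters), the AP-1 motif (TGANTCA, in 7.81%), the CArG box (in 1.63%) and the MEF2 site (in 3.19%) were in none of the 5 windows. Overlaps between motifs were counted for each motif. Plec and Cryab were not matched.

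The effect of the loss of Bin1 was read from KO_PBS against WT_PBS. In saline-treated KO muscle the RNA of desmin, nestin, vimentin, syncoilin and alpha B-crystallin rose, by 1.47-fold to 2.34-fold. Plectin measured 99.7% of its WT_PBS level, with a 95% interval of the log2FC from -0.25 to 0.24, and synemin measured 73.9% of its WT_PBS level without passing the test. The 5 genes that rose were 5 of 7 members, and over all 14960 genes edgeR called 12.6%, 7.43% being higher and 5.12% lower. Of those calls 59.2% were higher with TMM scaling and 88.2% with library totals alone, which also moved the median of all genes from -0.01 to 0.14, and the same 5 members were called either way. The median log2FC of the 7 members was 0.75, beside -0.01 over all genes tested. The members were chosen with earlier results of these data known, so neither share nor median tests the set against all genes.

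**Figure D1:**
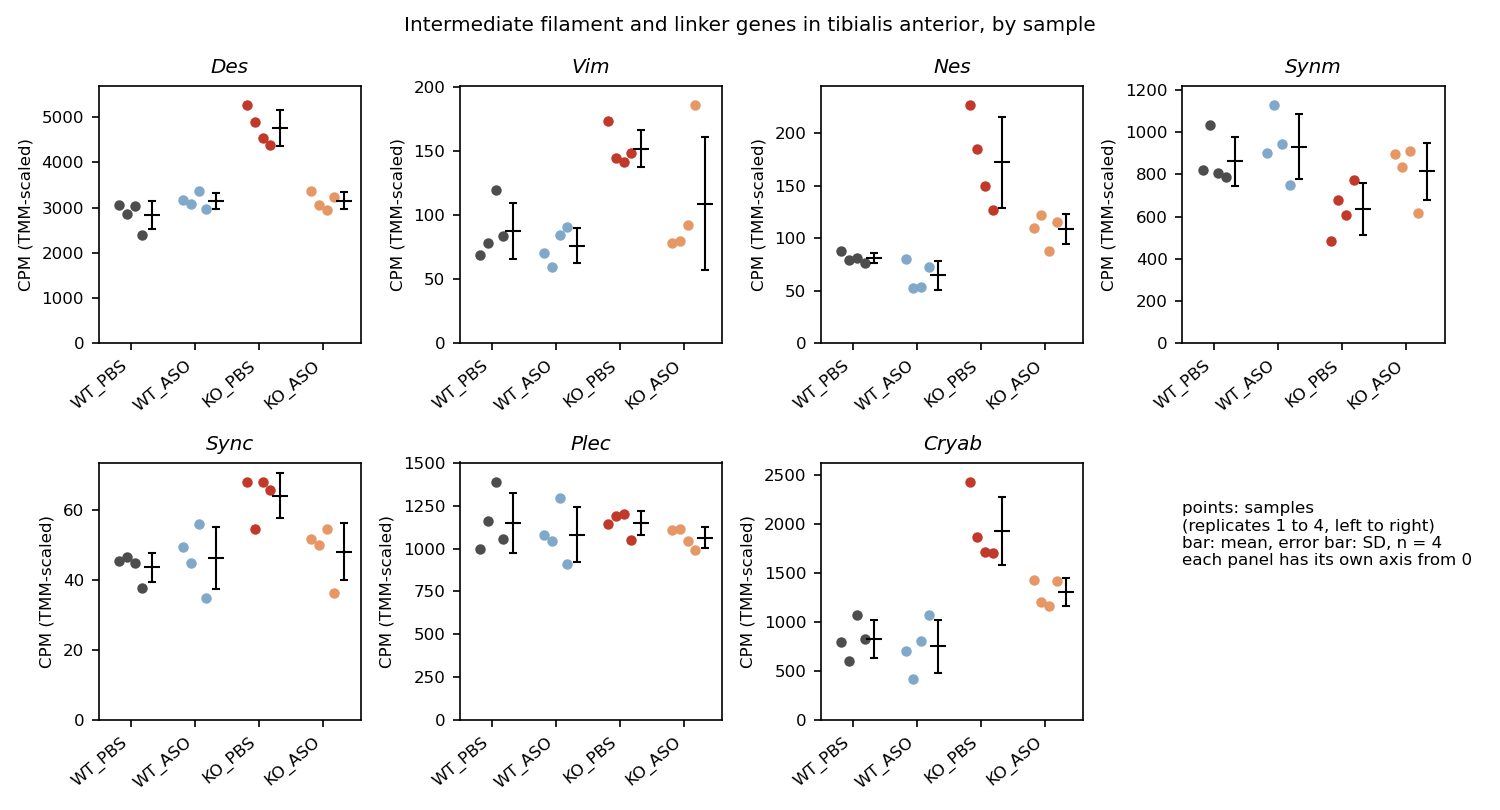
Level of each of the 7 genes in every sample, in TMM-scaled CPM on the y axis of each panel, with the 4 groups on the x axis; points are samples, the bar is the mean and the error bar the SD (n = 4). The 4 KO_PBS samples of Des, Vim, Nes, Sync and Cryab lie above the 4 WT_PBS samples, those of Synm lie below them, and those of Plec lie among them.

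Des (ENSMUSG00000026208, GRCm38 chromosome 1, 75360329 to 75368579, plus strand) measured 3057, 2868, 3036 and 2387 CPM in the 4 WT_PBS samples. The KO_PBS samples measured 5267, 4890.3, 4536 and 4378 CPM. The groups were far apart, with the lowest KO_PBS sample above the highest of the other 12 samples, and the log2FC was 0.75 (SE 0.10, edgeR adjusted P = 0.000118), a rise to 168% of the WT_PBS level. An antisense gene, Gm15179, shares 220 bases with the exons of Des and stood at 15.5 ± 0.787 CPM in WT_PBS and 10.5 ± 1.74 CPM in KO_PBS (SD, n = 4 for each).

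Nes (ENSMUSG00000004891, chromosome 3, 87971078 to 87980451, plus strand) had the largest log2FC among the filament genes. The 4 WT_PBS samples were close together at 87.4, 79.4, 81.3 and 76.0 CPM, and the KO_PBS samples were spread over 226, 185, 149.8 and 127 CPM, all above WT_PBS. Its log2FC was 1.09 (SE 0.17, edgeR adjusted P = 0.000609), or 2.12-fold.

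Vim (ENSMUSG00000026728, chromosome 2, 13573927 to 13582826, plus strand) was nearer the threshold. It stood at 69.2, 78.0, 119 and 83.8 CPM in WT_PBS and 174, 145, 141 and 148 CPM in KO_PBS, and the groups did not overlap. The log2FC was 0.79 (SE 0.25, edgeR adjusted P = 0.0460). The call was lost without the filter on low counts (edgeR adjusted P = 0.139) and when any of 10 of the 16 samples was left out, with adjusted P values up to 0.130, while the log2FC stayed between 0.70 and 0.98.

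Sync (ENSMUSG00000001333, chromosome 4, 129287617 to 129308559, plus strand) is the member expressed lowest in CPM. It measured 45.4, 46.4, 44.8 and 37.6 CPM in WT_PBS and 68.1, 54.5, 67.9 and 65.7 CPM in KO_PBS, again without overlap, and the log2FC was 0.56 (SE 0.14, edgeR adjusted P = 0.0162). Leaving out WT_PBS replicate 4 (edgeR adjusted P = 0.0603) or KO_PBS replicate 1 (0.0536) ended the call. Sync shares 27.3% of its exon length with Rbbp4 on the other strand, which stood at 55.8 ± 1.72 CPM in WT_PBS and 60.0 ± 1.25 CPM in KO_PBS (SD, n = 4 for each).

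Synm (ENSMUSG00000030554, chromosome 7, 67730160 to 67759742, minus strand) went against the other filament genes. It measured 820.0, 1033, 804 and 787 CPM in WT_PBS and 484, 679.7, 608 and 772 CPM in KO_PBS, so that every KO_PBS sample lay below every WT_PBS sample, though the gap between the nearest samples was small. The log2FC was -0.44 (SE 0.16), with a 95% interval from -0.77 to -0.10, and it missed the threshold after adjustment (edgeR adjusted P = 0.0824), whereas limma-voom, which called 18.2% of all genes here, called it (adjusted P = 0.0279). The adjusted P value ran from 0.0279 to 0.253 over 23 other settings, and the log2FC was negative in all of them. Ttc23, on the other strand, shares 84 exon bases with Synm and stood at 7.58 ± 0.636 CPM in WT_PBS and 8.11 ± 0.810 CPM in KO_PBS (SD, n = 4 for each).

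Plec (ENSMUSG00000022565, chromosome 15, 76170974 to 76232574, minus strand) measured 995, 1163, 1391 and 1053 CPM in WT_PBS and 1141, 1192, 1204 and 1050.2 CPM in KO_PBS. The groups lay over each other, and the log2FC was less than 0.01 in size (SE 0.12, edgeR adjusted P = 0.985).

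Cryab (ENSMUSG00000032060, chromosome 9, 50751325 to 50756636, plus strand) had the largest log2FC of the 7. The WT_PBS samples measured 794, 605, 1074 and 824 CPM, and the KO_PBS samples measured 2436, 1874, 1713 and 1701 CPM. The lowest KO_PBS sample was well above the highest WT_PBS sample, and the log2FC was 1.23 (SE 0.23, edgeR adjusted P = 0.00256), or 2.34-fold. Its neighbour Hspb2, another small heat shock gene that shares 252 exon bases with it on the other strand, measured 58.3 ± 10.7 CPM in WT_PBS and 68.3 ± 8.37 CPM in KO_PBS (SD, n = 4).

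The calls of Des, Nes and Cryab held in all 23 other settings, with adjusted P values up to 0.00275, 0.00392 and 0.0118. Counted without any model, 6 of the 7 genes had no overlap between KO_PBS and WT_PBS, 5 higher and 1 lower, where 20.4% of all genes tested did not overlap, 10.5% of them being higher and 9.85% lower in KO_PBS as shares of all genes. Each of the 6 gave the smallest exact permutation P that the design allows, 0.0286, and none of the 35 such tests passed after Benjamini-Hochberg adjustment over them. At that floor no single gene could pass this adjustment on its own.

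The make-up of the filament RNA was computed from the RPKM of Des, Synm, Vim, Nes and Sync within each sample, as a description chosen after the values were seen. The sum of the 5 genes was 910.6 ± 89.2 RPKM in WT_PBS and 1432 ± 102 RPKM in KO_PBS (SD, n = 4 for each). Desmin made up 82.9% ± 1.62 of this sum in WT_PBS and 88.7% ± 1.13 in KO_PBS (SD, n = 4). Synemin made up 12.0% ± 1.61 of the sum in WT_PBS and 5.66% ± 1.38 in KO_PBS (SD, n = 4), and its KO_PBS shares, from 3.91% to 7.27%, lay below all WT_PBS shares, from 10.5% to 13.9%. Desmin is most of the sum, so the synemin share falls where desmin rises, even at an unchanged level of synemin. Vimentin, nestin and syncoilin each made up between 1.30% and 2.61% of the sum in these samples. In KO_ASO synemin made up 10.3% ± 1.84 of the sum (SD, n = 4), from 7.69% to 12.0%, above all KO_PBS shares.

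**Figure D2:**
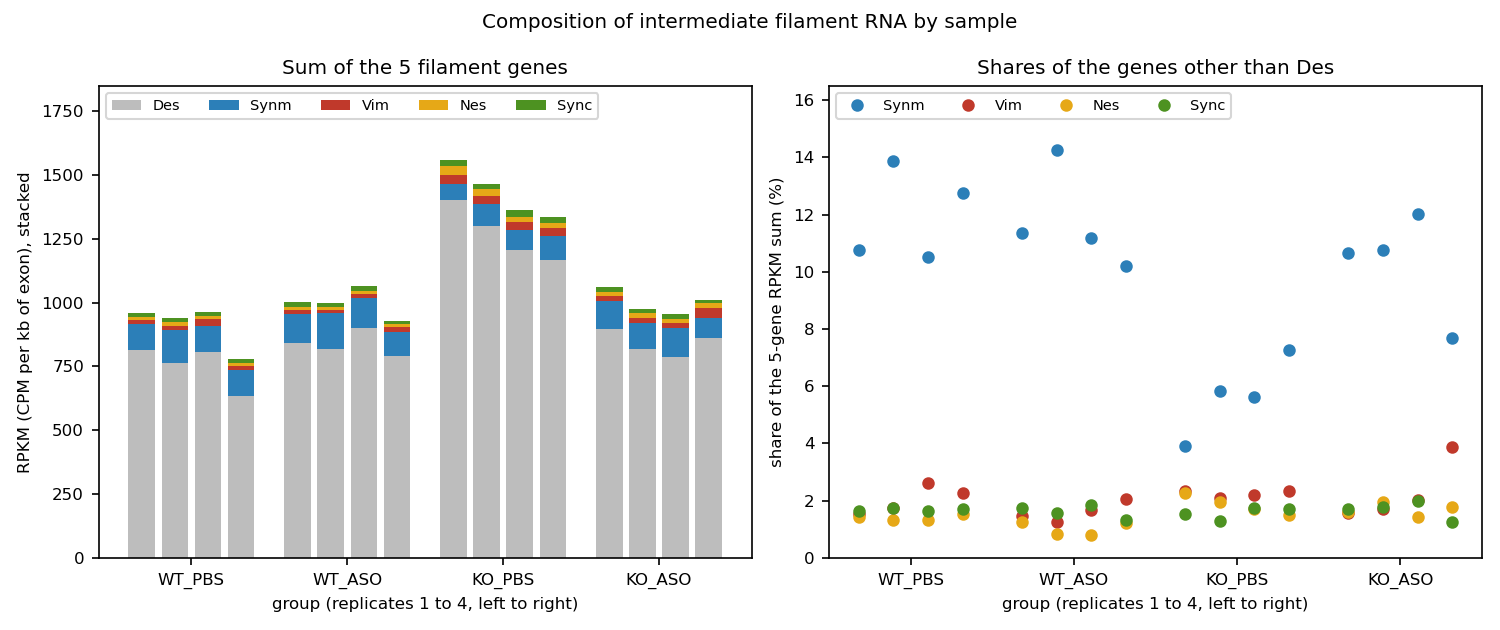
Left, RPKM of the 5 filament genes stacked for each sample, with the groups on the x axis; right, the share of that sum in percent for each of the 4 genes other than Des, with 1 point per sample and gene. The stacks of KO_PBS are the tallest and its synemin shares are the lowest, from 3.91% to 7.27%.

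The effect of the oligonucleotide in KO muscle was read from KO_ASO against KO_PBS, which uses the same KO_PBS samples as the comparison above. Desmin and nestin RNA fell, to 66.2% and 63.1% of their KO_PBS levels. Of the other 3 genes that were higher in KO_PBS, Cryab measured 67.6%, Vim 71.7% and Sync 75.1% of the KO_PBS level, and these did not pass the test, while Synm measured 128% and Plec 92.8%. The 2 of 7 members called lower stand beside 3.64% of all genes called, 2.83% being lower. Of all those calls 22.1% were higher in KO_ASO with TMM scaling and 8.29% with library totals alone. The median log2FC of the members was -0.48, beside 0.01 over all genes. The same limit on the choice of members holds here.

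Des measured 3361, 3068, 2958 and 3239 CPM in KO_ASO, every sample below the lowest KO_PBS sample at 4378 CPM. The log2FC was -0.60 (SE 0.10, edgeR adjusted P = 0.00303), and the call held in all 23 other settings, with adjusted P values up to 0.0161. Nes measured 109.8, 122, 87.9 and 115 CPM in KO_ASO, also all below KO_PBS, though the highest KO_ASO and lowest KO_PBS samples were close. Its log2FC was -0.66 (SE 0.17, edgeR adjusted P = 0.0387). That call was lost without the filter on low counts (edgeR adjusted P = 0.0566), with only the compared groups in the fit (0.0919), and when any of 7 single samples was left out, with adjusted P values up to 0.136.

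Cryab measured 1434, 1204, 1166 and 1421 CPM in KO_ASO. All 4 samples lay below the lowest KO_PBS sample at 1701 CPM, yet the log2FC of -0.56 (SE 0.23) did not pass (edgeR adjusted P = 0.189), and no setting called it. With Cryab, 3 of the 7 genes were lower in KO_ASO without overlap, beside 6.34% of all genes, and each gave the smallest exact permutation P of 0.0286.

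Vim in KO_ASO was decided by a single sample. It measured 78.5, 79.6, 92.1 and 186 CPM, the last value, of replicate 4, being above all 4 KO_PBS samples while the other 3 lay below all of them. The log2FC was -0.48 (SE 0.25, edgeR adjusted P = 0.329), and without KO_ASO replicate 4 it was -0.87 (edgeR adjusted P = 0.0118). With all 16 samples limma-voom, which weights each sample and called 7.93% of all genes here, called Vim lower (adjusted P = 0.0259). The same sample had the lowest Synm and the lowest Sync of its group, at 617 and 36.3 CPM, and its summed level of 7 fibroblast markers, 1842 CPM, was the highest of the group, close to the 1687 CPM of replicate 3. Its sums of macrophage, endothelial, mural and Schwann cell markers were also the highest of the group, at 67.8, 534, 723 and 101 CPM. So was its low sum of T cell and neutrophil markers, at 0.766 CPM. Its sums of satellite cell, immature fibre, fast fibre, slow fibre and adipocyte markers were not. The part of that sample's cell content in the value of Vim was not tested.

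Sync measured 51.5, 50.0, 54.5 and 36.3 CPM in KO_ASO, and the highest of these was level with the lowest KO_PBS sample. Its log2FC of -0.41 (SE 0.14) did not pass (edgeR adjusted P = 0.119) but did in 2 of 23 other settings, among them library totals in place of TMM scaling (0.0329). Synm measured 896, 834, 911 and 617 CPM in KO_ASO, with 3 samples above all of KO_PBS and replicate 4 within them. Its log2FC was 0.36 (SE 0.16, 95% interval 0.02 to 0.69, edgeR adjusted P = 0.247), and Plec, at 989 to 1113 CPM, gave a log2FC of -0.11 (SE 0.12, edgeR adjusted P = 0.705).

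**Figure D3:**
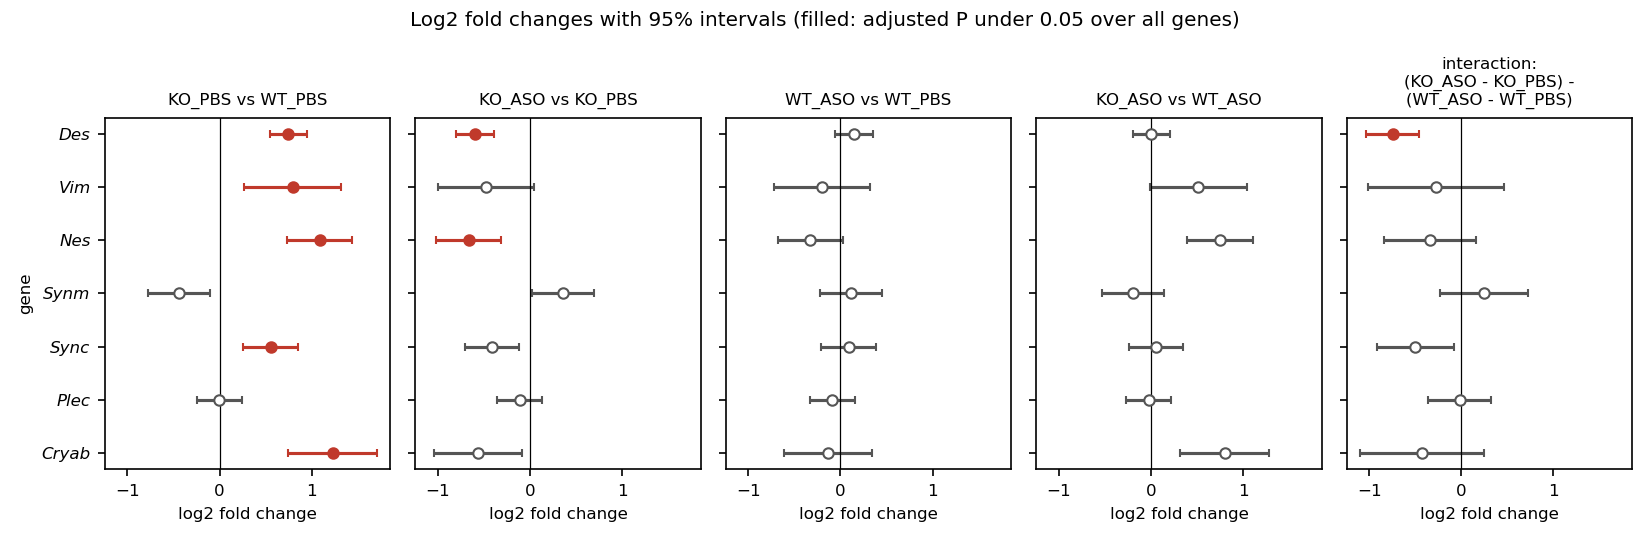
Log2 fold change of each of the 7 genes on the x axis with its 95% interval, for 4 comparisons and the interaction; filled points have an edgeR adjusted P value under 0.05. In KO_PBS vs WT_PBS 5 points are filled, all on the right, in KO_ASO vs KO_PBS Des and Nes are filled on the left, and in the interaction Des alone is filled.

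In WT muscle the oligonucleotide moved none of the 7 genes past the threshold. WT_ASO against WT_PBS gave 0 members called by edgeR, 0 by DESeq2 and 0 by limma-voom, 0 members at an unadjusted P under 0.05, and 0.00668% of all genes called. The log2FC ran from -0.33 for Nes (SE 0.17, 95% interval -0.68 to 0.03, edgeR adjusted P = 0.802) to 0.15 for Des (SE 0.10, 95% interval -0.05 to 0.35, edgeR adjusted P = 0.844). Nes measured 79.8, 53.0, 53.4 and 72.1 CPM in WT_ASO, with 3 of the 4 below all WT_PBS samples. Des measured 3167, 3073, 3376 and 2964 CPM there, with 3 of the 4 above all WT_PBS samples. Cryab, at 707, 418, 804 and 1069 CPM, was the most scattered gene of the group.

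Whether the oligonucleotide acted differently in the 2 genotypes was tested by the interaction. Des was called, with a log2 difference of -0.74 (SE 0.14, edgeR adjusted P = 0.0234) between its log2FC of -0.60 in KO and 0.15 in WT, where 0.575% of all genes were called and 0.515% in this direction. The call of Des held in the 6 settings that kept all samples, and it was lost when any of 7 single samples was left out (WT_PBS replicate 4, WT_ASO replicate 1 or 3, KO_PBS replicate 1 or 2, KO_ASO replicate 2 or 3), with adjusted P values up to 0.0679. The difference was -0.50 for Sync (SE 0.20, edgeR adjusted P = 0.295), -0.43 for Cryab (SE 0.32, 0.636), -0.34 for Nes (SE 0.24, 0.612) and -0.28 for Vim (SE 0.35, 0.809). Without KO_ASO replicate 4 the value of Vim was -0.67, and leaving out single samples gave -0.67 to -0.15 for Vim, -0.46 to -0.17 for Nes and -0.62 to -0.21 for Cryab. Synm had the opposite sign, at 0.24 (SE 0.22, edgeR adjusted P = 0.719), Plec was at -0.02 (SE 0.16, 0.977), and none of these 6 passed.

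The treated KO muscle was set against both WT groups to see what difference remained. Desmin RNA in KO_ASO was 100.4% of WT_ASO and 111% of WT_PBS, whereas nestin and alpha B-crystallin RNA still lay above both WT groups in every sample. For Nes the lowest KO_ASO sample, at 87.9 CPM, nearly touched the highest WT_PBS sample, at 87.4 CPM. For Cryab these samples were at 1166 and 1074 CPM. Against WT_ASO, which shares no sample with the comparison of the saline groups, edgeR called 0 of 7 members, beside 0.0735% of all genes. For Nes the log2FC was 0.75 (SE 0.17, 95% interval 0.4 to 1.1, edgeR adjusted P = 0.0805), and for Cryab it was 0.80 (SE 0.23, 95% interval 0.32 to 1.28, edgeR adjusted P = 0.139). Both were called by DESeq2, with adjusted P values of 0.00302 and 0.0217, a tool that called 2.8% of all genes in this comparison, limma-voom called 0 of 7, and over 23 other settings Nes was called in 2 and Cryab in 1. These 2 genes alone had an edgeR P value under 0.05 before adjustment. The KO_ASO samples of these 2 genes did not overlap the WT_ASO samples, beside 2.96% of all genes being higher without overlap, nor the WT_PBS samples, beside 2.38%. For Des against WT_ASO the log2FC was 0.01, with a 95% interval from -0.20 to 0.21 and an edgeR adjusted P value of 0.985.

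Against WT_PBS edgeR also called 0 of 7 members in KO_ASO, beside 0.0401% of all genes, with Nes (log2FC 0.42, SE 0.17) and Cryab (0.66, SE 0.23) under 0.05 before adjustment and with adjusted P values of 0.547 and 0.461. DESeq2 and limma-voom called 0 of 7 as well. Synm was at 94.6% and Sync at 110.5% of WT_PBS, and Vim at 124%, a value that without KO_ASO replicate 4 changed side, to a log2FC of -0.07.

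The balance of the precursor filaments to desmin was taken within each library, where it does not depend on scaling between libraries. Vim RPKM was 2.46% ± 0.598 of Des RPKM in WT_PBS, 1.92% ± 0.378 in WT_ASO, 2.52% ± 0.151 in KO_PBS and 2.73% ± 1.24 in KO_ASO (SD, n = 4 for each). Nes RPKM was 1.68% ± 0.129 of Des RPKM in WT_PBS, 1.21% ± 0.280 in WT_ASO, 2.09% ± 0.354 in KO_PBS and 2.01% ± 0.247 in KO_ASO (SD, n = 4 for each). The ratio of Vim to Des differed between KO_PBS and WT_PBS by 0.07 on the log2 scale (exact permutation P = 0.771), less than its SD of 0.360 among the WT_PBS samples. For Nes the log2 difference in KO_PBS was 0.30 (exact permutation P = 0.0571). The ratio of Nes to Des was lower in WT_ASO than in WT_PBS by a log2 difference of -0.50 and higher in KO_ASO than in WT_ASO by 0.76, each with an exact permutation P of 0.0286. Over the 10 ratio tests none passed after Benjamini-Hochberg adjustment, the lowest adjusted exact permutation P being 0.143. At the floor of 0.0286 no single ratio could pass this adjustment on its own, whatever its size.

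Genes of the wider filament network were counted from lists written from general knowledge, with earlier results of these data known. Over all genes edgeR called 7.43% higher and 5.12% lower in KO_PBS against WT_PBS, and 2.83% lower in KO_ASO against KO_PBS. Of 16 other intermediate filament genes 9 were tested, and in KO_PBS 3 of them rose and 0 fell, with a list median of 0.12. Krt8 and Krt18 were among the 9 only through their levels in KO samples, so the count of risers does not test direction. DESeq2 called 2 of these 3, Krt8 and Lmna, and gave no P value for Krt18. In KO_ASO against KO_PBS edgeR called 1 lower (Lmna), DESeq2 2 (Lmna and Krt8) and limma-voom 3 (Lmna, Krt8 and Krt18). Lmna, the nuclear lamin A/C gene, rose by a log2FC of 1.32 (SE 0.16, edgeR adjusted P = 8.27e-05) and fell in KO_ASO against KO_PBS by 0.74 (SE 0.16, edgeR adjusted P = 0.0180). Krt8 and Krt18, whose products pair with each other in the filaments of simple epithelia, were nearly silent in WT muscle. Krt18 had between 4 and 8 counts in each WT_PBS library and between 336 and 621 in each KO_PBS library, and Krt8 had between 0 and 5 and between 38 and 97. Both passed the filter on low counts only through KO samples, where they are high. Their edgeR calls as higher (adjusted P = 0.000227 and 0.000189) are therefore no separate support for that direction. In KO_ASO Krt18 was uneven, at 1.19, 9.94, 2.01 and 0.697 CPM, so that replicate 2 was within the KO_PBS range of 9.52 to 17.1 CPM and the others far below it. Reads of keratin genes can be split with near-identical copies, so these counts carry that uncertainty.

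The list of other plakins and anchors holds relatives of Plec and genes of the dystrophin complex and vinculin, and also the thin filament gene Neb, its relative Nebl and the lipid phosphatase gene Mtm1. It gave 1 riser among 11 tested of 14, beside 7.43% of all genes called higher. This was Macf1 (log2FC 0.64, SE 0.13, edgeR adjusted P = 0.00444), a plakin that crosslinks actin and microtubules, and the list median was -0.04. With library totals in place of TMM scaling 3 were called and the median was 0.12. Of the 11 small heat shock proteins and filament chaperones 8 rose and 0 fell in KO_PBS, with a list median of 0.56. The list holds 6 Hspb genes, the small heat shock family to which Cryab belongs, of which 5 rose, and 5 chaperones or co-chaperones of other families, of which Bag3, Dnajb4 and Dnajb6 rose and Hspa8 and Stub1 were not called. Hspb7 rose most, by a log2FC of 2.01 (SE 0.34, edgeR adjusted P = 0.00137), with Hspb1 at 1.51 (SE 0.19, 9.56e-05) and Hspb3 at 0.72 (SE 0.13, 0.00207). In KO_ASO against KO_PBS 3 of the 11 fell, among them Hspb1 by 1.06 (SE 0.19, edgeR adjusted P = 0.00521) and Hspb8 by 0.64 (SE 0.16, edgeR adjusted P = 0.0346). A list of 11 genes was named for myofibrillar myopathy, but not all are established causes of it, Capn1 being an example. Of these 3 rose in KO_PBS, Fhl1 (log2FC 1.25, SE 0.27, edgeR adjusted P = 0.00697), Flnc (1.13, SE 0.19, 0.000970), which codes for the Z-disc protein filamin C, and Trim63 (0.68, SE 0.18, 0.0195), a ubiquitin ligase of muscle. Of the same list edgeR called 0 lower, with 2 lower at an unadjusted P under 0.05, while DESeq2 called 1 lower (Trim54) and limma-voom 2 (Trim54 and Ttn). In KO_ASO against KO_PBS the calls among the 11 were 0 in edgeR, 1 in DESeq2 and 0 in limma-voom, and 3 had an edgeR P value under 0.05 before adjustment. In WT_ASO against WT_PBS edgeR, DESeq2 and limma-voom called 0 genes of these 4 lists, with 3 at an unadjusted edgeR P under 0.05. In KO_ASO against WT_ASO edgeR and limma-voom called 0 and DESeq2 3, with 13 under 0.05 before adjustment in edgeR.

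**Figure D4:**
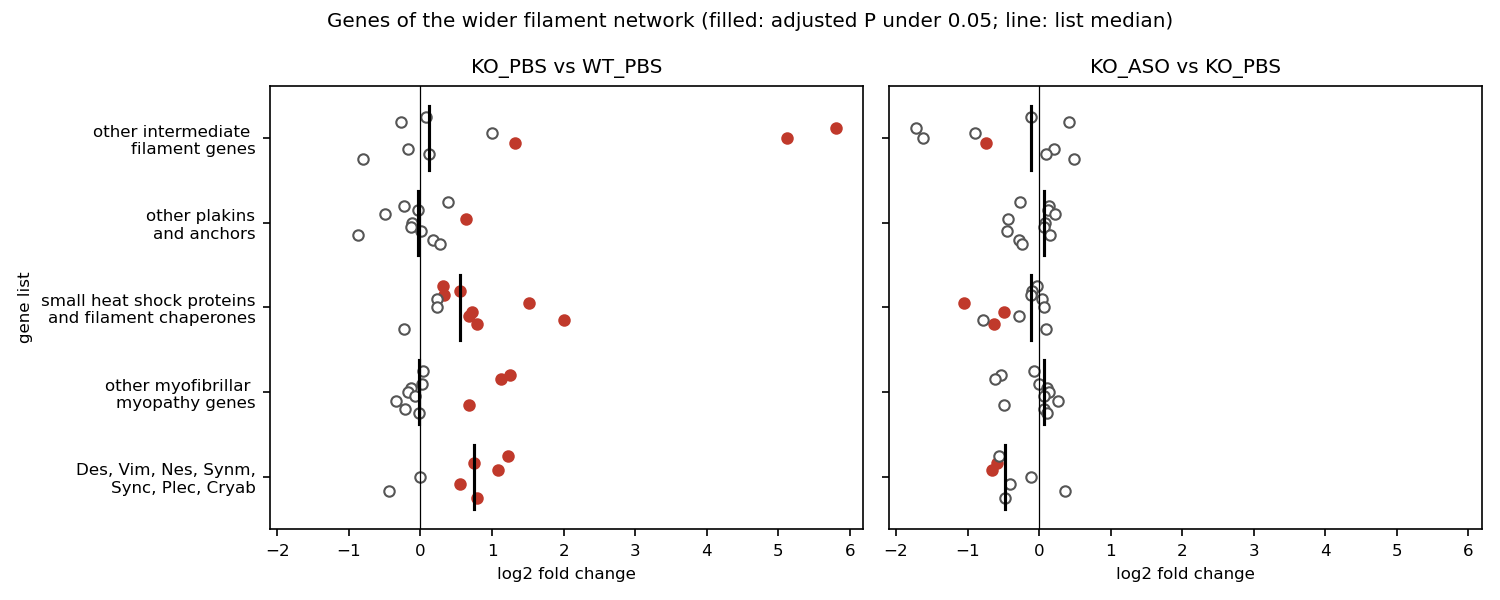
Log2 fold change on the x axis for each tested gene of 4 lists and for the 7 genes from Des to Cryab, 1 row per list, in KO_PBS vs WT_PBS on the left and KO_ASO vs KO_PBS on the right; filled points have an edgeR adjusted P value under 0.05 and the vertical line is the list median. On the left, the chaperones and the 7 genes have medians of 0.56 and 0.75, and the other 3 lists have medians between -0.04 and 0.12.

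Cells other than adult fibres can supply Vim and Nes, so marker lists of such cells were read beside them. No listed marker was at 0 over a whole group. Beside the marker counts below, edgeR called 7.43% of all genes higher and 5.12% lower in KO_PBS against WT_PBS. In KO_ASO against KO_PBS it called 2.83% lower. The 7 macrophage markers were all called higher in KO_PBS, with a summed level of 42.3 to 69.1 CPM in WT_PBS, 42.4 to 93.0 in WT_ASO, 108 to 334 in KO_PBS and 45.2 to 67.8 in KO_ASO, and 5 of 7 were called lower in KO_ASO than in KO_PBS. Of the 7 fibroblast markers 3 were called higher in KO_PBS and 1 lower in KO_ASO. For the latter, library totals alone and DESeq2 each called 3 and limma-voom 4, and 5 had an edgeR P value under 0.05 before adjustment. The fibroblast sum ran from 1052 to 1387 CPM in WT_PBS, 447 to 1980.2 in WT_ASO, 1327 to 2324 in KO_PBS and 541 to 1842 in KO_ASO. Of the 8 markers of immature or denervated fibres 7 were called higher in KO_PBS and 4 lower in KO_ASO, with sums of 58.6 to 70.6, 71.8 to 88.5, 167 to 238 and 86.9 to 121 CPM in the same order of groups. Members of these 3 lists were higher in KO_PBS together with Vim and Nes, and their part in the rise of either gene was not tested.

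Satellite cells are the muscle stem cells in which nestin is known. Of their 6 markers 5 were called lower in KO_PBS (3 with library totals alone), and the sum ran from 30.8 to 38.0 CPM in WT_PBS, 25.3 to 39.6 in WT_ASO, 16.8 to 22.2 in KO_PBS and 30.8 to 41.7 in KO_ASO. Of the 6 endothelial markers 0 were called in KO_PBS by edgeR, DESeq2 or limma-voom, with 2 at an unadjusted edgeR P under 0.05 and sums of 401 to 548 CPM in WT_PBS and 366 to 515 in KO_PBS, and of the 6 mural cell markers 1 was called higher and 2 lower in KO_PBS, the latter 0 with library totals alone. In KO_PBS the Schwann cell and adipocyte lists gave 0 calls by any of these tools among 6 and 4 markers, with 1 and 0 at an unadjusted edgeR P under 0.05. The adipocyte markers were low and uneven, with sums of 2.91 to 4.88 CPM in WT_PBS, 2.29 to 24.4 in WT_ASO, 0.441 to 22.8 in KO_PBS and 0.692 to 9.86 in KO_ASO, and all 4 had a positive log2FC in KO_PBS against WT_PBS, from 0.74 to 1.58. Of 6 markers of T cells and neutrophils 1 was tested, which DESeq2 called higher in KO_PBS and edgeR and limma-voom did not, its unadjusted edgeR P being under 0.05.

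Des, Synm and Cryab are read against the fibre markers. The muscle of all 16 samples carried the fast fibre markers at 140478 to 272708 summed CPM, with 3 of the 8 called lower in KO_PBS (0 with library totals alone), where the sum ran from 140478 to 166086 CPM beside 185069 to 232483 in WT_PBS. In WT_ASO it ran from 197557 to 272708 CPM and in KO_ASO from 164063 to 186054 CPM, so the group with the most Des RNA had the lowest range of this sum, and the part of the fast fibre content in the level of Des was not tested. The slow fibre list, of interest because slow fibres are rich in alpha B-crystallin, gave 1 of 6 called higher in KO_PBS, Tnni1 (log2FC 3.10, SE 0.59, edgeR adjusted P = 0.00414), with 3 of 6 at an unadjusted P under 0.05. DESeq2, and edgeR with library totals alone, called 2, Tnni1 and Tnnt1. The list median was a log2FC of 1.51 in KO_PBS against WT_PBS and 1.78 in KO_ASO against WT_PBS, where edgeR called 0, DESeq2 1 and limma-voom 0, with 3 under 0.05 before adjustment in edgeR. The summed level ran from 71.4 to 239 CPM in WT_PBS, 70.2 to 179 in WT_ASO, 139 to 210.2 in KO_PBS and 144 to 566 in KO_ASO. The sums overlapped between WT_PBS and KO_PBS, while most of the single markers had a higher fitted level in KO_PBS, as Cryab had, and the part of fibre type in the level of Cryab was not tested.

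**Figure D5:**
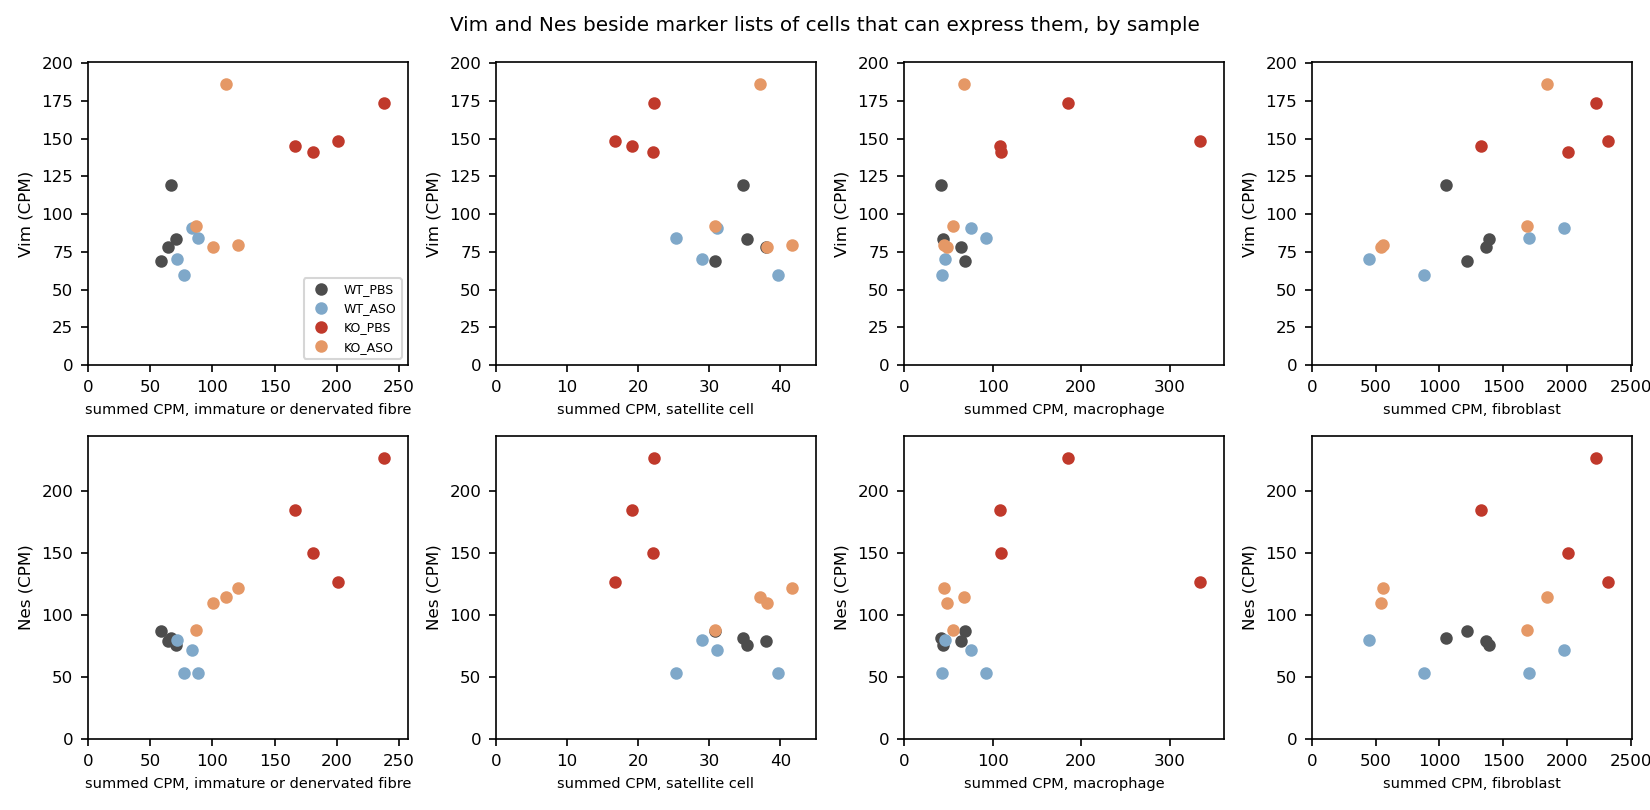
Vim (upper row) and Nes (lower row) in CPM on the y axis against the summed CPM of 4 marker lists on the x axis, 1 point per sample, coloured by group. The KO_PBS samples lie to the right for immature fibre and macrophage markers, to the left for satellite cell markers, and partly among the others for fibroblast markers; the KO_ASO sample with Vim at 186 CPM lies among the other KO_ASO samples for the immature fibre and satellite cell lists.

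For each of the 7 genes the 3 genes with the most similar course over the 16 samples were found by Pearson's r of log2 CPM. The samples share groups, so the r of the deviations from the group means is given beside it, and both are descriptions. For Des the nearest were Tmbim1 (r = 0.964, deviations 0.666), 1810058I24Rik (0.958, 0.696) and Rab13 (0.956, 0.764). For Nes they were Shc4 (0.961, 0.811), Zfand2a (0.952, 0.709) and Lbh (0.950, 0.808), and for Vim they were Impdh1 (0.933, 0.835), Adgra2 (0.929, 0.894) and Nt5c (0.928, 0.881). Synm ran closest with Phkb (0.952, 0.933), a subunit of phosphorylase kinase, Sox6 (0.952, 0.931), a transcription factor of fast fibres, and Adi1 (0.946, 0.911). Cryab ran closest with Csrp3 (0.939, 0.854), which codes for the muscle LIM protein of the Z-disc, Wdyhv1 (0.938, 0.773) and Itga5 (0.937, 0.741). The values were lower for Sync, with E130218I03Rik (0.896, 0.783), Serpinb6a (0.891, 0.746) and Cst6 (0.885, 0.720), and for Plec, with Ccdc9 (0.885, 0.939), Nfix (0.881, 0.967) and Cherp (0.877, 0.902). For all 3 neighbours of Plec the r within groups was above that over all samples, and for the other 6 genes it was below.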

How the data were processed

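RNA of 16 tibialis anterior samples, 4 per group, was sequenced from libraries of a stranded messenger RNA kit, per the labels. The authors deposited raw counts of reads per Ensembl gene, not normalized. Listed in the submitters' processing notes, without their roles, are STAR 2.5.3a, HTSeq 0.6.1p1, Bowtie2 2.2.8, cutadapt 1.10 and the mouse build GRCm38 (mm10). The sources used here give neither the annotation release nor the strand setting of the counting, so reads of genes that overlap on opposite strands (Des and Gm15179, Synm and Ttc23 or Gm45102, Sync and Rbbp4, Cryab and Hspb2) may have been shared, as may those of Plec and Parp10 on the same strand. The table held 29730 genes, each of which was found in GENCODE vM21 (GRCm38), the source of symbols, coordinates and exon lengths.

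Counts were analysed with edgeR 4.0.16 in R 4.3.3. The filterByExpr step, by group, kept 14960 genes and removed 14770. TMM gave the library scaling. The quasi-likelihood fit, with robust dispersions and the 4 groups as its only terms, used all 16 samples together, with a common biological coefficient of variation of 18.7% and no lower correlation within a group than 0.974. P values were adjusted by Benjamini-Hochberg over all genes of a comparison. The SE is the size of the log2FC divided by the square root of F, and 95% intervals use the t distribution of the fit. RPKM is CPM per kilobase of merged exons. Exact permutation tests (scipy 1.17.1) used log2 CPM with a prior count of 2, 35 in all for single genes and 10 for the ratios of Vim and Nes to Des. Alternatives were other scalings, no filter, the compared groups alone, a replicate block, DESeq2 1.42.0, limma-voom (limma 3.58.1) with sample weights, and each sample left out. The scripts were tested on simulated data.

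The 7 genes and the gene lists were chosen with earlier results of these data known. Named from each list were at most 3 called genes with the smallest P in KO_PBS vs WT_PBS and 2 in KO_ASO vs KO_PBS, and for each of the 7 genes its 3 most similar genes. Other list genes are named outside this rule to say what a list holds or which genes a small count or another tool called, and were chosen after their values were seen.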

Additional observations from a re-analysis of the deposited data

Results flagged for a closer look

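Of 36 sets of 4 samples examined for a sample far from the rest, 2 held such a sample, and chance alone gives about 1 in 20. Vim in KO_ASO had its highest sample, replicate 4, at 186 CPM, while the next was at 92.1 CPM and the lowest at 78.5 CPM. Synm in WT_PBS had its highest sample, replicate 2, at 1033 CPM, with the next at 820.0 CPM and the lowest at 787 CPM.

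Des differed between the genotypes in its response to the oligonucleotide, by a log2 difference of -0.74 (SE 0.14, edgeR adjusted P = 0.0234 for the interaction). In KO muscle all 4 KO_ASO samples lay below all KO_PBS samples, and in WT muscle 3 of the 4 WT_ASO samples lay above all WT_PBS samples.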

How the results depend on the processing

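Among the counts of members called, other scalings, DESeq2 and limma-voom left the count of KO_PBS vs WT_PBS within 1.5 times of 5. Leaving out 1 sample gave 3 to 5, with 3 (Des, Nes and Cryab) without WT_PBS replicate 4 or KO_PBS replicate 1. For KO_ASO vs KO_PBS the count of 2 became 1, Des, without the filter or with the compared groups alone, and 1 to 3 on leaving out a sample. For KO_ASO vs WT_ASO the count of 0 became 2 with DESeq2, and for the interaction the count ran from 0 to 1 on leaving out a sample. Over all genes, the 544 calls of KO_ASO vs KO_PBS became 1186 with limma-voom, 1056 with DESeq2 and 300 with the compared groups alone, and DESeq2 gave 419 in place of 11 in KO_ASO vs WT_ASO, 95 in place of 6 in KO_ASO vs WT_PBS, 33 in place of 1 in WT_ASO vs WT_PBS and 378 in place of 86 in the interaction. Leaving out 1 sample moved the 1878 calls of KO_PBS vs WT_PBS to between 997 (without KO_PBS replicate 1) and 2137, with 1080 without WT_PBS replicate 4, those of KO_ASO vs KO_PBS to between 208 (without KO_PBS replicate 1) and 831 (without KO_ASO replicate 4), those of the interaction to between 23 (without WT_PBS replicate 4) and 102, and the 11 of KO_ASO vs WT_ASO to between 2 (on leaving out any 1 of 6 samples) and 19 (without KO_PBS replicate 1 or KO_ASO replicate 3). In that comparison limma-voom and the compared groups alone gave 2 each, DESeq2 size factors 6 and the replicate block 44. For KO_ASO vs WT_PBS leaving out 1 sample moved the 6 calls to between 4 (as without WT_PBS replicate 3) and 11 (without KO_ASO replicate 3). For WT_ASO vs WT_PBS the 1 call became 4 without WT_PBS replicate 2 and 3 without the filter. The causes were not tested.

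Other results changed direction under single settings. With library totals, limma-voom and the replicate block, Plec in KO_PBS vs WT_PBS gave a log2FC of 0.15, 0.056 and 0.0019. Plec in KO_ASO vs WT_ASO gave 0.086 with library totals and 0.0048 with limma-voom, and Des there gave -0.0095 with limma-voom. Leaving out a sample gave for Plec -0.0701 to 0.0988 in KO_PBS vs WT_PBS, -0.186 to 0.0151 in WT_ASO vs WT_PBS, -0.0988 to 0.0731 in KO_ASO vs WT_ASO and -0.123 to 0.0788 in the interaction. It gave for Sync -0.0151 to 0.202 in WT_ASO vs WT_PBS and -0.0581 to 0.169 in KO_ASO vs WT_ASO, for Cryab -0.358 to 0.0609 in WT_ASO vs WT_PBS, and for Des -0.0264 to 0.0430 in KO_ASO vs WT_ASO. In KO_ASO vs WT_PBS it gave -0.0720 to 0.502 for Vim and -0.140 to 0.0324 for Synm. The log2 ratio of Vim to Des ran from -0.0719 to 0.194 between the saline groups, -0.259 to 0.173 in KO_ASO vs KO_PBS and -0.190 to 0.242 in KO_ASO vs WT_PBS, and that of Nes to Des from -0.142 to 0.0478 in KO_ASO vs KO_PBS.

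The labels do not say what a shared replicate number means, and the samples were not treated as paired because no comparison had all its 4 same-number pairs correlated above 0.1. The correlation of deviations from the group means ran from -0.078 to 0.435 over 24 same-number pairs and passed 0.1 in 11 of them, against 8 of 72 other pairs, with medians of 0.075 and -0.027. As a hint from the data that some numbers are shared, 8 of 8 samples correlated best with their own number in WT_ASO vs WT_PBS, 6 of 8 in KO_PBS vs WT_PBS and in KO_ASO vs WT_ASO, 4 of 8 in KO_ASO vs KO_PBS and 3 of 8 in KO_ASO vs WT_PBS. With the replicate block the members called were 5 in KO_PBS vs WT_PBS and 3 in the comparison of KO_ASO with KO_PBS, where Sync was added (edgeR adjusted P = 0.0335), and 1 in KO_ASO vs WT_ASO, Nes (edgeR adjusted P = 0.0487). With sign flips of 4 pairs the ratio tests cannot go below an exact P of 0.125.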
